A study of Sus scrofa with 12 samples.

Results

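The osmolyte carriers of the cell, with their regulator, were followed in the ventral annulus fibrosus of the pig, the fibrous ring of the intervertebral disc. The 5 genes were the carriers SLC6A12 (betaine), SLC6A6 (taurine) and SLC5A3 (myo-inositol), the sorbitol-making enzyme AKR1B1, and NFAT5, the transcription factor that drives all of them when the surroundings of a cell become hypertonic. They were chosen by symbol, through a table that pairs pig Ensembl identifiers with gene names. Of the 5 genes, 3 had a row among the 22198 genes of the count table, namely SLC6A12, SLC6A6 and NFAT5, and all 3 passed the filter on low counts. SLC5A3 had no entry in the name table, and the identifier of AKR1B1 had no row in the count table, so neither was analysed here.

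Cartilage and disc cells live in a matrix whose charged proteoglycans hold water and ions, so that the fluid around the cells is hypertonic and its tonicity rises when load presses water out. Cells answer by taking up or making small uncharged osmolytes, which restore cell volume without the harm done by salt. NFAT5, also called TonEBP, binds the tonicity-responsive element (TonE) in or near the genes of the osmolyte carriers and of aldose reductase, as shown mainly in kidney cells, and is known to be active in the nucleus pulposus.

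Messenger RNA was sequenced in 12 libraries made from a wedge of the central ventral annulus at lumbar level L3-4 of anaesthetised Duroc-cross pigs of mixed sex aged 3 to 4 months. The 6 Non-loaded Control libraries came from 6 pigs that were anaesthetised without load, and the 6 Hyperloaded libraries came from 4 pigs that received 400 N by hand every 1 or 2 min for 4 h. The Hyperloaded group thus has 2 further libraries, powdered and extracted on their own from the same pigs, and the labels do not say which libraries share a pig, so p-values are too small to that extent. Neither the loading interval nor the sex of a library is in the labels, so neither entered a comparison.

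Totals ran from 12519251 to 24896924 counts in the controls and from 12483998 to 19298022 in the Hyperloaded libraries. Levels are given as CPM, the counts of a gene relative to all counts of its library after scaling by the trimmed mean of M values (TMM). Differences between the groups were tested in edgeR (quasi-likelihood, 2-sided) over 12597 genes, with p-values adjusted after Benjamini and Hochberg. The words rose and fell are kept for an adjusted p under 0.05, which held for 19.2% of the tested genes, with 8.44% lower and 10.8% higher in the Hyperloaded libraries. The median change over all tested genes was 0.00 on the log2 scale. The libraries also differed in makeup. The summed level of the 10 chondrocyte markers with a row, of 12 listed, ran from 128443 to 672871 CPM in the controls and from 2539 to 155832 CPM in the Hyperloaded libraries, and 1 of the 8 tested (COL11A2) fell. Muscle markers (4 of 12 listed had a row, all 4 tested and all higher) ran from 6.05 to 146 CPM and from 22.9 to 30562 CPM. Macrophage and monocyte markers (9 of 13 listed had a row, and 7 of the 8 tested were higher) ran from 17.6 to 161 CPM and from 161 to 308 CPM. Fibrous outer annulus and tendon markers (7 of 9 listed had a row, all 7 tested) ran from 110291 to 285395 CPM and from 73770 to 272291 CPM. Of these, TNMD and THBS4 were higher, COL3A1 was lower and the rest did not pass. Endothelial markers (2 of 5 listed had a row, both tested, with PECAM1 lower) ran from 359 to 635 CPM and from 266 to 454 CPM. The defining collagens of the annulus, COL2A1 and COL1A2, were present in every library, and the markers of the nucleus pulposus, KRT8 and KRT18, reached at most 4.55 CPM together. In bulk tissue, fewer cells of a type and less RNA per cell cannot be told apart.

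The DNA before these genes is shown because the TonE is the sequence through which NFAT5 is known to act on them. The 250 bases before the outermost annotated start of SLC6A12, the gene with the large difference described below, lie at chr5:67573859-67574108 of Sscrofa11.1 (RefSeq), on the minus strand, and have a GC content of 64.4%. They hold 1 match to the TonE consensus, given in capitals, and they fall in the 290 bases that separate SLC6A12 from SLC6A13, the gene of a related carrier of GABA and taurine that lies before it on the same strand.
SLC6A12: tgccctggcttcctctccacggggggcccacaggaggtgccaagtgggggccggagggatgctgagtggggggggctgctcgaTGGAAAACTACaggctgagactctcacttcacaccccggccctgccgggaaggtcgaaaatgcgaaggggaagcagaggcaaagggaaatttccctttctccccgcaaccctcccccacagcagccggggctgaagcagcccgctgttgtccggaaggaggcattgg

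Within 2000 bases before their starts, SLC6A12 had 1 TonE match, SLC6A6 had 3, SLC5A3 and AKR1B1 had 1 each, and NFAT5 had none. The matches are printed 5′ to 3′ on the strand of the gene, with the matched bases in capitals, so that they can be compared. A match that begins with the core TGGAAA lies on the strand of the gene, and one that ends in TTTCCA lies on the opposite strand.
SLC6A12, first base at −167, chr5:67574015-67574025, minus: gctgctcgaTGGAAAACTACaggctgaga
SLC6A6, −17, chr13:70173588-70173598, minus: gccaagctgGTATTTTTCCAcccagc
SLC6A6, −774, chr13:70174345-70174355, minus: tctaaaaagTGGAAAAATCCacacagcct
SLC6A6, −1604, chr13:70175175-70175185, minus: ccactcagcAGACCTTTCCAaactgcagc
SLC5A3, −328, chr13:197688304-197688314, plus: cggaaggcaTGGAAAGTTCCagctggttc
AKR1B1, −373, chr18:14593143-14593153, plus: actgagaaaTGGAAACGTTCgcaatggca

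Searched on both strands, a TonE match was found in 4.69% of 19531 windows of 250 bases before annotated genes and in 40.1% of 19525 windows of 2000 bases. A match within 250 bases, as in SLC6A12 and SLC6A6, was thus uncommon, and one within 2000 bases was not. A match describes the letters only, and whether NFAT5 was bound there was not measured. SLC6A12 has 6 annotated start sites, SLC6A6 has 5 and NFAT5 has 10, and only the window before the outermost one was read.

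SLC6A12, which encodes the betaine carrier BGT1, was the gene that fell. The gene spans chr5:67550285-67573858 on the minus strand (ENSSSCG00000000749). The level was 15.6, 33.8, 22.8, 29.5, 14.8 and 4.73 CPM in controls 1 to 6. It was 0.720, 2.29, 2.23, 0.184, 7.56 and 0.183 CPM in Hyperloaded libraries 1 to 6. All Hyperloaded libraries were below the control mean, and 5 of the 6 were below every control. The groups overlapped only through Hyperloaded library 5, which stood above control 6. For comparison, all Hyperloaded libraries were below every control for 2.98% of the tested genes and above every control for 3.81%.

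With 6 libraries in each group, SLC6A12 averaged 20.2 ± 10.7 CPM (SD) in the controls against 2.20 ± 2.80 CPM (SD) after loading. The difference was −3.26 on the log2 scale (SE 0.76, 95% interval −4.91 to −1.62), or 9.61-fold lower, with an adjusted p of 0.0148 in edgeR's quasi-likelihood test. It was the 10th largest fall in the fitted value among all tested genes. The counts behind it ran from 93 to 634 in the controls and from 3 to 88 in the Hyperloaded libraries, so that the gene entered the test through the controls alone and its low levels carry a wide counting error. Without Hyperloaded library 5 the difference was −4.18 (18.1-fold lower, adjusted p = 0.00331 by edgeR), and over the 12 fits that each left out 1 library it ran from −4.18 to −3.00 with an adjusted p of at most 0.0370.

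**Figure D1:**
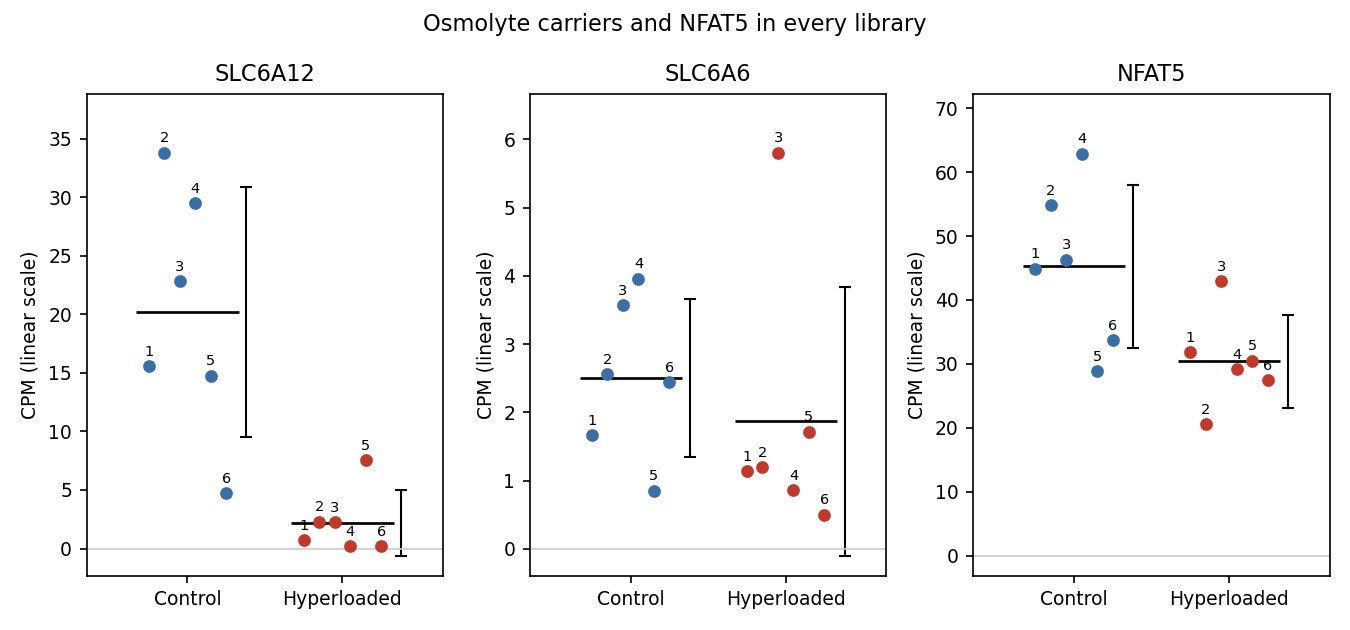
Level of SLC6A12, SLC6A6 and NFAT5 in each library, in CPM on a linear scale, with the replicate number above each point; horizontal lines are group means and bars are ± 1 SD (n = 6 libraries per group). For SLC6A12, 5 of the 6 Hyperloaded libraries lie below every control. For SLC6A6 the groups overlap widely, and for NFAT5 only controls 5 and 6 lie within the Hyperloaded range.

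NFAT5 itself, the regulator of these carriers (chr6:17313511-17434951, minus strand, ENSSSCG00000002755), was expressed more evenly. The level was 44.9, 54.8, 46.3, 62.9, 28.9 and 33.7 CPM in controls 1 to 6. It was 31.8, 20.6, 42.9, 29.2, 30.5 and 27.4 CPM in Hyperloaded libraries 1 to 6. All Hyperloaded libraries were below the control mean of 45.2 ± 12.7 CPM (SD, n = 6), but only libraries 2 and 6 were below every control, since controls 5 and 6 were low as well. The Hyperloaded mean was 30.4 ± 7.28 CPM (n = 6). The difference of −0.57 on the log2 scale (SE 0.21, 95% interval −1.02 to −0.13) had an unadjusted p of 0.0156 and did not pass the adjustment (adjusted p = 0.0662, edgeR). It stood near the threshold, since it passed without control 5 (−0.67, adjusted p = 0.0390), without Hyperloaded library 3 (−0.70, adjusted p = 0.0417) and with DESeq2's Wald test (−0.56, adjusted p = 0.0469), while the direction was the same throughout. The activity of NFAT5 is also set by its phosphorylation and its entry into the nucleus, which RNA levels do not show.

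SLC6A6, the taurine carrier TauT (chr13:70094073-70173581, minus strand, ENSSSCG00000011600), was scarce. The level was 1.66, 2.56, 3.57, 3.96, 0.852 and 2.44 CPM in controls 1 to 6. It was 1.14, 1.20, 5.80, 0.858, 1.72 and 0.503 CPM in Hyperloaded libraries 1 to 6. The highest and the lowest value of all 12 libraries were both Hyperloaded, in libraries 3 and 6, and the groups overlapped. The control mean was 2.51 ± 1.16 CPM and the Hyperloaded mean 1.87 ± 1.97 CPM (SD, n = 6 each), a difference of −0.45 on the log2 scale (SE 0.54, 95% interval −1.60 to 0.71, adjusted p = 0.568, edgeR). That interval holds both a clear fall and a moderate rise. The counts ran from 9 to 91, and the gene passed the filter through the Hyperloaded group alone because control 5 held 9. Library 3 carried the Hyperloaded mean, and without it the difference was −1.24 (adjusted p = 0.0544, edgeR).

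Thus 1 of the 3 measured genes fell and none rose, against 8.44% and 10.8% of all tested genes. Per kilobase of the longest annotated transcript, which allows levels of different genes to be set side by side, SLC6A12 stood at 5.42 ± 2.86 CPM/kb (SD, n = 6) in the controls, beside 4.77 ± 1.34 CPM/kb for NFAT5 and 0.413 ± 0.191 CPM/kb for SLC6A6. In the Hyperloaded libraries these levels were 0.589 ± 0.750, 3.21 ± 0.768 and 0.308 ± 0.324 CPM/kb (SD, n = 6). The betaine carrier was therefore the more abundant of the measured carriers in the controls, with no overlap between their ranges, while in the Hyperloaded libraries the ranges of both carriers overlapped. SLC6A12 has 8 annotated transcripts, SLC6A6 has 6 and NFAT5 has 15, and a shorter one would raise the level per kilobase.

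Whether these genes changed unequally was asked with ratios within each library, which need no scaling. The log2 ratio of SLC6A12 to SLC6A6 moved from 2.91 ± 1.09 in the controls to −0.40 ± 1.59 after loading (SD, n = 6 each), a difference of −3.31 (exact permutation test over 924 splits, 2-sided, p = 0.00433, adjusted p = 0.00649 over 3 pairs). The log2 ratio of SLC6A12 to NFAT5 moved from −1.35 ± 0.77 to −4.83 ± 2.08 (n = 6 each), a difference of −3.47 with the same p and adjusted p in that exact test. In the Hyperloaded libraries, the betaine carrier was thus lower relative to both the taurine carrier and the regulator. The splits treated the 12 libraries as independent, although the 6 Hyperloaded ones came from 4 pigs. The p-values of this permutation test are therefore too small to that extent. The log2 ratio of SLC6A6 to NFAT5 was −4.26 ± 0.54 and −4.43 ± 0.97 (n = 6 each), a difference of −0.17 (exact permutation test, p = 0.727).

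The level of SLC6A12 also varied with the cartilage markers of the wedge. The mean log2 CPM of 8 tested chondrocyte markers was 10.38, 11.26, 11.07, 11.87, 9.71 and 9.67 in controls 1 to 6. It was 10.32, 7.97, 7.71, 5.05, 9.44 and 4.35 in Hyperloaded libraries 1 to 6. COL2A1, the collagen of cartilage, took 11.4 to 44.8% of all counts in the controls and 0.236 to 12.5% in the Hyperloaded libraries. The Hyperloaded libraries with the lowest SLC6A12 levels, 4 and 6, also had the lowest chondrocyte marker levels. Hyperloaded library 1 differed from that order. Its chondrocyte marker level was above those of controls 5 and 6, and its SLC6A12 level was 0.720 CPM, against 14.8 and 4.73 CPM in those controls. Hyperloaded library 5, whose marker level of 9.44 was slightly below those of the same controls, had an SLC6A12 level between theirs, at 7.56 CPM.

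Among the 6 controls, which came from separate pigs, SLC6A12 was higher where the chondrocyte marker mean was higher (Pearson r = 0.83, exact permutation over 720 pairings, p = 0.0292, adjusted p = 0.0438 over 3 genes; Spearman's rho = 0.94, p = 0.0167, adjusted p = 0.025). The same held for NFAT5 (r = 0.96, exact p = 0.00278, adjusted p = 0.00833; rho = 0.94, p = 0.0167, adjusted p = 0.025). For SLC6A6, r was 0.75 (exact p = 0.0833, adjusted p = 0.0833) and rho was 0.77 (p = 0.103, adjusted p = 0.103). Without controls 4 and 6, the 2 farthest from the median marker level, r was 0.90 for SLC6A12, 0.93 for NFAT5 and 0.94 for SLC6A6, over 4 libraries that are too few for a test. Both measures of a pair came from the same library and shared its scaling. The 6 Hyperloaded libraries, from 4 pigs, were not tested in this way. As values only, r in them was 0.71 for SLC6A12, 0.44 for SLC6A6 and 0.16 for NFAT5. The close relation of NFAT5 with the marker mean was thus seen in the controls alone.

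**Figure D2:**
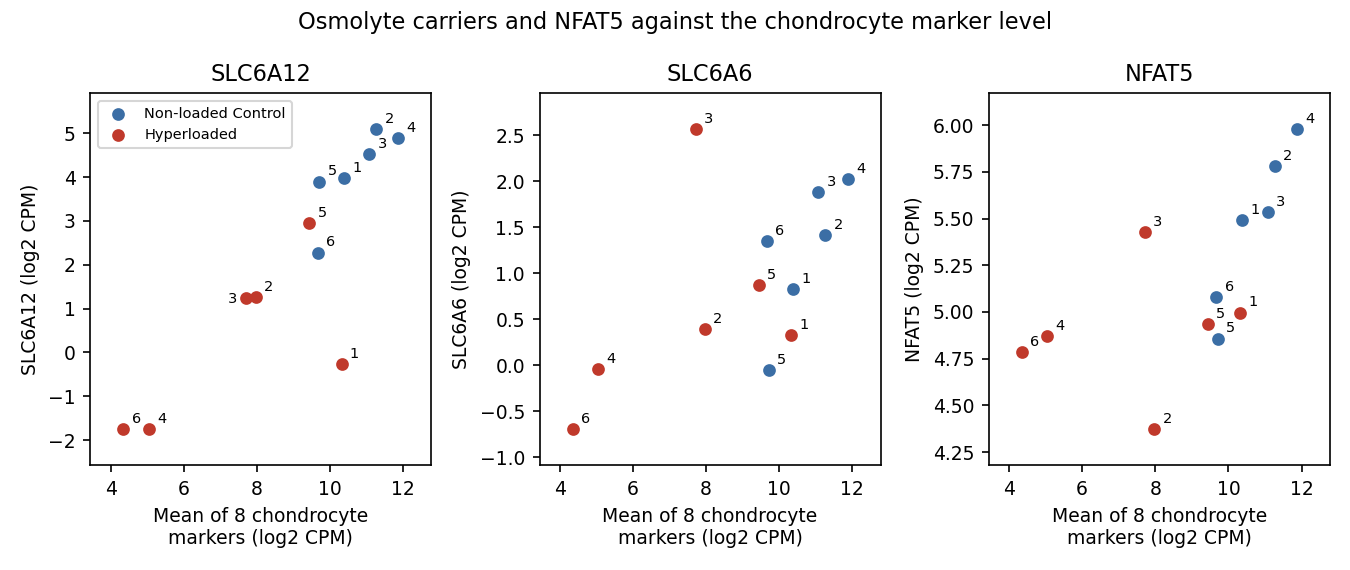
Log2 CPM of SLC6A12, SLC6A6 and NFAT5 (vertical axis) against the mean log2 CPM of 8 chondrocyte markers (horizontal axis) in the 6 control and 6 Hyperloaded libraries, with replicate numbers. In the SLC6A12 panel, Hyperloaded libraries 4 and 6 lie lowest on both axes. Hyperloaded library 1 lies far below the controls of like marker level, while Hyperloaded library 5 lies between controls 5 and 6 on the vertical axis.

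With the chondrocyte marker mean as a covariate in the edgeR fit, the Hyperloaded difference of SLC6A12 was −1.13 (SE 0.79, adjusted p = 0.600) and that of NFAT5 was −0.31 (SE 0.30, adjusted p = 0.720), while that of SLC6A6 turned to 0.53 (SE 0.80, adjusted p = 0.835). The marker mean itself differed between the groups, so such a fit can remove a shared difference, and it called 12 genes in all. Without Hyperloaded libraries 2, 3 and 6, which had high muscle markers, SLC6A12 was −2.91 (adjusted p = 0.120) by edgeR, with 167 genes called. The part of the tissue makeup in the fall of SLC6A12 was not tested beyond these fits.

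As a description of what varied with each gene, deviations of log2 CPM from the group means were correlated over the 12 libraries, among genes with a symbol and at least 5 CPM. PAPSS2 (r = 0.92), an enzyme that makes the sulfate donor for proteoglycans, PLEK2 (r = 0.90) and TRPV4 (r = 0.90), a calcium channel opened by swelling and load, were most like SLC6A12. DIP2C (r = 0.90), TMF1 (r = 0.90) and ECE1 (r = 0.87), the endothelin-converting enzyme, were most like SLC6A6. SLCO2A1 (r = 0.97), the prostaglandin carrier, FCHSD2 (r = 0.95) and CCDC186 (r = 0.93) were most like NFAT5. Each list is the top 3 of 6661 or 6662 genes, and high values arise in such a search. Among themselves, SLC6A6 and NFAT5 had an r of 0.69, SLC6A12 and SLC6A6 one of 0.53, and SLC6A12 and NFAT5 one of 0.33.

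The other genes that NFAT5 is known to drive, mostly from human, mouse or rat cells, did not move together. Of 20 listed, 14 had a row and 11 were tested, of which 1 rose (CCL2), 1 fell (PNPLA6) and 9 did not pass, and the median was −0.01 against 0.00 over all tested genes. CCL2, a chemokine that draws monocytes and is also a target of inflammatory factors, was at 1.66, 1.17, 1.45, 1.53, 4.73 and 3.56 CPM in controls 1 to 6. It was at 69.8, 46.0, 106, 35.1, 17.6 and 82.0 CPM in Hyperloaded libraries 1 to 6. Every Hyperloaded library stood above every control, and the difference was 4.69 on the log2 scale (SE 0.50, adjusted p = 0.00145, edgeR). All of the macrophage and monocyte markers named above that passed were higher as well, and their part in the rise of CCL2 was not tested.

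PNPLA6, which makes the osmolyte glycerophosphocholine from membrane lipid, ran from 41.7 to 49.9 CPM in the controls and from 29.4 to 39.5 CPM in the Hyperloaded libraries. The groups did not overlap, although the fall was small, at −0.43 on the log2 scale (SE 0.10, adjusted p = 0.0151, edgeR). ACAN, the aggrecan core protein and also a chondrocyte marker, had a difference of −2.12 (SE 0.73, adjusted p = 0.0582) and passed without Hyperloaded library 5 (−2.75, adjusted p = 0.0187, edgeR). With all 12 libraries it passed in DESeq2's Wald test (−2.10, adjusted p = 0.00823) and limma's voom (−3.33, adjusted p = 0.0104). It also passed in edgeR with library size only (−1.98, adjusted p = 0.0447). HSPA4L, the heat shock protein Osp94, had a difference of 0.88 (SE 0.36, adjusted p = 0.0971) and passed without Hyperloaded library 2 (1.08, adjusted p = 0.0254, edgeR). With all 12 libraries it passed in limma's voom (1.18, adjusted p = 0.0130) and in edgeR with library size only (1.13, adjusted p = 0.0467).

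**Figure D3:**
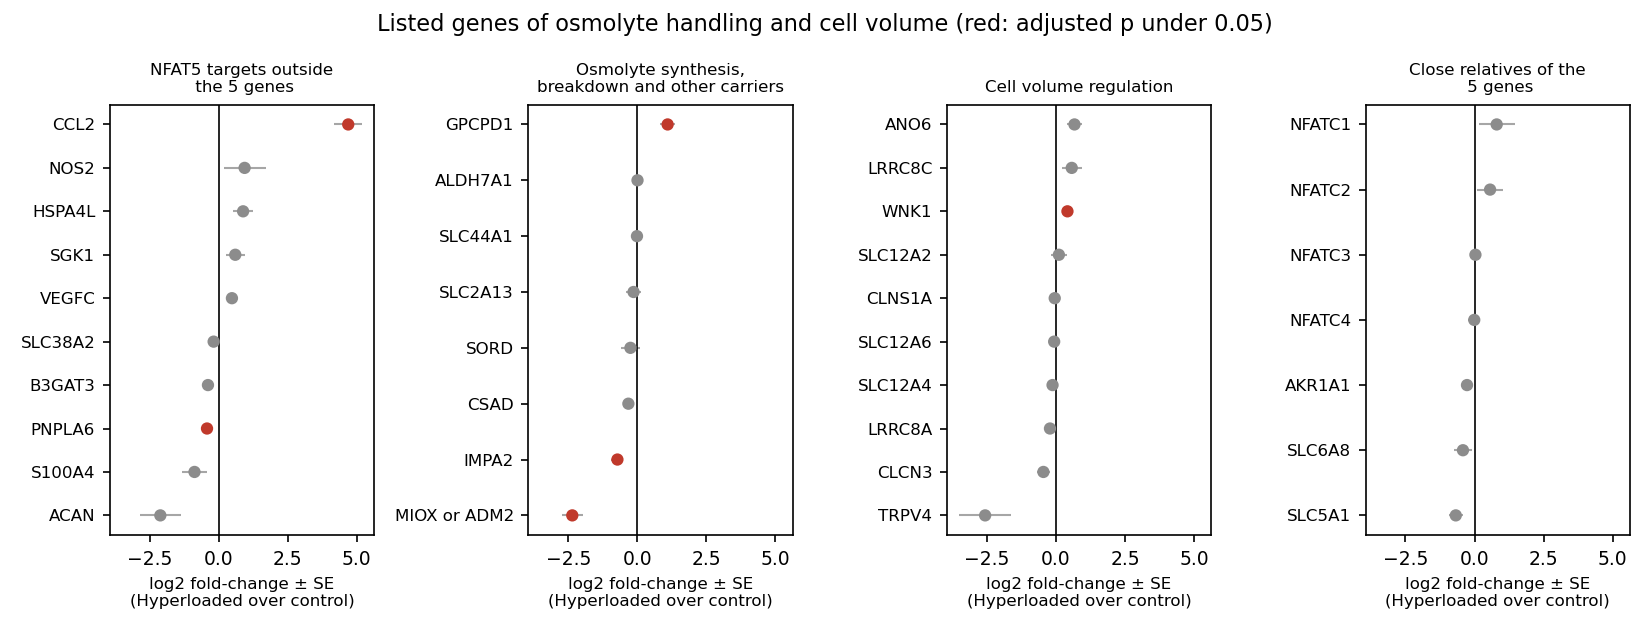
Log2 fold-change (Hyperloaded over control, points) with its SE (bars) for tested genes of 4 lists, each panel sharing one horizontal axis; red points had an adjusted p under 0.05 in edgeR's test over 12597 genes. Red points lie on both sides of 0, with CCL2 at 4.69 and the gene named MIOX or ADM2 at −2.36 farthest out.

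Genes that make, break down or carry osmolytes in other ways gave 8 tested of 18 listed, with 1 higher, 2 lower and a median of −0.19. One of the 2 lower genes has an uncertain name. The table of gene names calls the identifier ENSSSCG00000023749 MIOX, which breaks down myo-inositol, while the study calls it ADM2, the peptide hormone adrenomedullin 2, whose gene neighbours MIOX on chromosome 5. Without it the list had 7 tested genes, 1 higher, 1 lower and a median of −0.14. The level of that identifier was 4.79, 6.88, 3.81, 7.13, 3.60 and 2.29 CPM in controls 1 to 6. It was at 1.14, 0.698, 0.702, 0.920, 1.89 and 0.366 CPM in Hyperloaded libraries 1 to 6. Every Hyperloaded library was below every control, and the difference was −2.36 on the log2 scale (SE 0.38, adjusted p = 0.00539, edgeR). Its counts in the Hyperloaded libraries were low, and it too entered the test through the controls.

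GPCPD1, which breaks down glycerophosphocholine, rose from 15.2 ± 4.48 to 32.4 ± 14.4 CPM (SD, n = 6 each), a difference of 1.10 on the log2 scale (SE 0.28, adjusted p = 0.0207, edgeR). Hyperloaded libraries 5 and 6 lay within the range of the controls, whose highest value was 23.1 CPM. IMPA2, which frees myo-inositol from its phosphate, fell from 23.6 ± 4.61 to 14.3 ± 4.85 CPM (SD, n = 6 each), by 0.72 on the log2 scale (SE 0.22, adjusted p = 0.0356, edgeR). That call held in 3 of the 12 fits with 1 library left out, those without control 4, Hyperloaded 2 and Hyperloaded 5, and the adjusted p over the 12 fits ran from 0.00875 to 0.0723. CSAD, which makes the taurine precursor hypotaurine, had a difference of −0.32 (SE 0.16, adjusted p = 0.157) and passed without Hyperloaded library 5 (−0.47, adjusted p = 0.0206, edgeR).

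Of 19 listed genes of cell volume regulation, 11 were tested, with 1 higher and a median of −0.06. WNK1, the chloride-sensing kinase that controls ion carriers during shrinkage, ran from 116 to 153 CPM in the controls and from 155 to 236 CPM in the Hyperloaded libraries. The groups only just stood apart, with a difference of 0.42 on the log2 scale (SE 0.13, adjusted p = 0.0462, edgeR), and over the 12 fits with 1 library left out the call held only without Hyperloaded 1 and without Hyperloaded 5 (adjusted p from 0.0299 to 0.0998).

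TRPV4, among the genes most like SLC6A12, was at 124, 194, 245, 170, 25.4 and 26.4 CPM in controls 1 to 6. It was at 16.9, 16.0, 36.4, 0.674, 62.4 and 0.869 CPM in Hyperloaded libraries 1 to 6. As for SLC6A12, Hyperloaded libraries 4 and 6 were lowest and library 5 was highest of their group, and controls 5 and 6 were low. The difference of −2.56 (SE 0.95, adjusted p = 0.0716) passed without Hyperloaded library 5 (−3.22, adjusted p = 0.0345, edgeR). With all 12 libraries it passed in DESeq2's Wald test (−2.55, adjusted p = 0.0300) and limma's voom (−4.96, adjusted p = 0.00553). ANO6, a scramblase and ion channel, had a difference of 0.67 (SE 0.28, adjusted p = 0.106) and passed without Hyperloaded library 5 (0.78, adjusted p = 0.0497, edgeR).

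Close relatives of the 5 genes showed no call in the edgeR test. Of 18 listed, 7 were tested, of which 1 had an unadjusted p under 0.05, and DESeq2's Wald test called none and limma's voom 1. Leaving out control 5 added 1 call, higher, in a gene other than those named here. The gene with the low p was SLC5A1, the sodium-glucose carrier and a relative of SLC5A3, at −0.68 (SE 0.25, adjusted p = 0.0734). It passed in edgeR without control 6 (−0.81, adjusted p = 0.0285) and without Hyperloaded 3 (−0.83, adjusted p = 0.0468). With all 12 libraries it passed in edgeR with upper quartile factors (−0.76, adjusted p = 0.0492) and in voom (−0.83, adjusted p = 0.0303). The creatine carrier SLC6A8, of the family of SLC6A12, had a difference of −0.42 (SE 0.33, adjusted p = 0.375), AKR1A1, a relative of AKR1B1, one of −0.27 (SE 0.15, adjusted p = 0.214), and NFATC1, of the family of NFAT5, one of 0.80 (SE 0.65, adjusted p = 0.386). The 95% interval for NFATC1 ran from −0.59 to 2.20, so that a p above the threshold does not show that its level was the same.

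The neighbours of the carriers on the chromosome were read because RNA of adjoining genes can be counted together. SLC6A13, which ends 290 bases before the outermost start of SLC6A12, had at most 4 counts in any library and was not tested. MRPS6, a mitochondrial ribosome protein gene whose span (chr13:197687906-197756773) contains the whole of SLC5A3, averaged 12.0 ± 5.84 CPM in the controls against 9.56 ± 5.55 CPM after loading (SD, n = 6 each), with a difference of −0.32 (SE 0.36, adjusted p = 0.549, edgeR). How reads from SLC5A3 were assigned where the 2 genes overlap is not given in the sources used here.

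**Figure D4:**
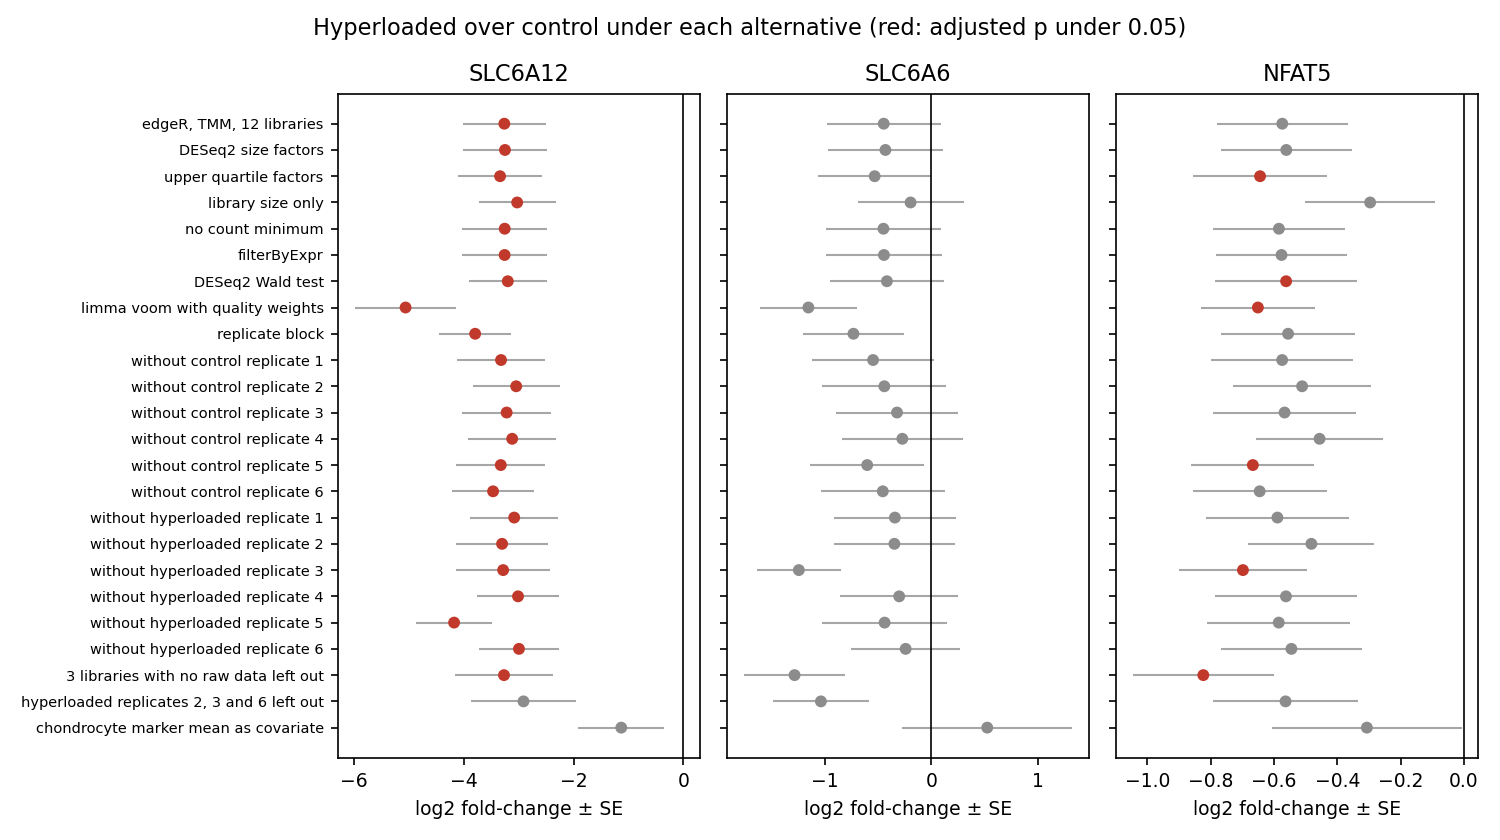
Log2 fold-change (Hyperloaded over control, points) with its SE (bars) for SLC6A12, SLC6A6 and NFAT5 under each way of processing the counts, one per line; red points had an adjusted p under 0.05. SLC6A12 was red in every line but the lowest 2, from −5.06 with limma's voom to −1.13 with the chondrocyte covariate, and NFAT5 stayed between −0.82 and −0.30 on either side of the threshold.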

How the data were processed

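Polyadenylated RNA of 12 annulus libraries (6 Non-loaded Control, 6 Hyperloaded) was sequenced after TruSeq preparation. Per the labels and the study's methods, the authors processed reads with CASAVA, mapped them with JMP Genomics to Sscrofa11.1 with up to 2 mismatches, and deposited unscaled expected counts of each gene in a single table, in which 23.2 to 28.5% of a library's values were whole. Groups and replicate numbers came from the sample titles; all 12 columns matched a sample and 0 were left over. The authors' TPM values and comparisons were not used here.

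Expected counts were rounded. A gene was tested if all 6 libraries of a group, control or Hyperloaded, held 10 counts or more (12597 of 22198). The fit used TMM scaling and edgeR 4.0.16 (R 4.3.3, quasi-likelihood) without covariates, p-values were adjusted over every tested gene after Benjamini and Hochberg, and the script was tested on simulated data. The SE was taken from the F statistic, and log2 CPM used a prior count of 2. Ratios between genes used a pseudocount of 0.5 and an exact permutation test in scipy 1.17.1 under Python 3.11.15. Counting intervals were not used, since replicate spread sets the errors.

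Gene names came from a table of a later annotation, which named 11700 of the identifiers (52.7%); 3819 of its identifiers, that of AKR1B1 among them, lie above the highest of the count table. Symbols could be missing for this reason from any list. The study and that table disagree on the name of 1 row used here, ENSSSCG00000023749 (ADM2 or MIOX). Positions and sequences are those of RefSeq on Sscrofa11.1 and played no part in counting. The 5 genes and all lists were chosen with earlier results of these data known. The genes named are these 5, up to 4 of each list with the smallest p beside all of its calls, 2 neighbours and the 3 genes most like each measured gene. SLC6A12 and other carriers share sequence with relatives, and the authors' counting may split such reads.

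Alternatives were DESeq2 size factors, upper quartile factors, library size only, no count minimum, edgeR's filterByExpr, DESeq2 1.42.0 (Wald test), voom of limma 3.58.1 with sample quality weights, the replicate number as a block, each library left out, the 3 libraries for which no raw data were given left out, Hyperloaded 2, 3 and 6 left out, and the chondrocyte marker mean as a covariate. Some listed genes are counted in their list but not reported here. Plots were drawn with matplotlib 3.10.9.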

Additional observations from a re-analysis of the deposited data

Results flagged for a closer look

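Dixon's criterion at the 95% level was applied to log2 CPM over 40 groups of 6 libraries (20 tested genes named in the text, 2 groups each). By it, 2 groups held a library far from the other 5, where chance gives about 1 group in 20. CSAD, which makes the taurine precursor hypotaurine, was at 15.7 CPM in Hyperloaded library 5, against 8.58 to 10.7 CPM in the other Hyperloaded libraries. MRPS6, whose span contains SLC5A3, was at 20.5 CPM in Hyperloaded library 2, against 5.76 to 9.18 CPM in the others. On the log2 scale, no library of SLC6A12, SLC6A6 or NFAT5 stood apart in this way. Plain CPM was not scanned. There, SLC6A12 was at 7.56 CPM in Hyperloaded library 5, against at most 2.29 CPM in the other Hyperloaded libraries. SLC6A6 was at 5.80 CPM in Hyperloaded library 3, against at most 1.72 CPM in the others.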

How the results depend on the processing

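Without one library, the ranges were −4.18 to −3.00 for SLC6A12 (called in all 12 fits), −1.24 to −0.24 for SLC6A6 (called in none) and −0.70 to −0.46 for NFAT5 (called in 2), with 1 to 2 of the 3 genes and 1249 to 3257 of all genes called, against 2422. NFAT5 was also called with upper quartile factors (−0.64), DESeq2's Wald test (−0.56), voom (−0.65) and the 3 libraries with no raw data left out (−0.82), which makes 2 of the 3 genes called in each. SLC6A12 was not called without Hyperloaded 2, 3 and 6 (−2.91, unadjusted p = 0.0121 by edgeR) or with the chondrocyte covariate (−1.13, unadjusted p = 0.175 by edgeR), so that 0 of the 3 genes were called in either, with 167 and 12 genes called in all. The first fit has 3 fewer libraries, and in the second the covariate differs between the groups. With the covariate SLC6A6 turned to 0.53, TRPV4 to 0.57 and MRPS6 to 0.19, and with library size only MRPS6 turned to 0.067, none of them called; the cause was not tested. Voom called 3653 genes. It put SLC6A12 at −5.06 (33.5-fold lower). The relations with the chondrocyte mean kept r of 0.90 for SLC6A12 and 0.93 for NFAT5 in 4 controls, which cannot pass a test.

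Of the calls, 56.1% were higher in the Hyperloaded libraries, 44.3% with upper quartile factors, 86.3% with library size only (which moves the median of all genes to 0.29), 76.0% without Hyperloaded 2, 3 and 6 and 91.7% with the covariate. Relative to 0.29, the NFAT5 difference of −0.30 under library size only is close to that with TMM. Of the 7 listed genes called, CCL2, PNPLA6, ENSSSCG00000023749 (MIOX or ADM2), GPCPD1, IMPA2 and WNK1 among them, 4 were still called with library size only, 3 without the 3 libraries with no raw data, 1 without Hyperloaded 2, 3 and 6 and 1 with the covariate. CCL2 was called in all 24 fits. The same replicate number does not pair libraries by design, since the control and Hyperloaded libraries came from different pigs. Correlations of same-numbered deviations ran from −0.12 to 0.26, above 0.1 in 3 of 6 pairs. In each group, 3 of 6 libraries matched their own number best, more than random matching gives on average, and the reason was not tested. With that number as a block, SLC6A12 was −3.80 (adjusted p = 0.0179 by edgeR), SLC6A6 −0.73 and NFAT5 −0.56 (adjusted p = 0.105), with 1744 genes called. The low counts of SLC6A12, SLC6A6 and ENSSSCG00000023749 limit what their levels can show.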

Other observations

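The calls among genes of osmolyte handling are set out here by osmolyte, and were not tested as a set. For glycerophosphocholine, PNPLA6, which makes it, was lower (−0.43) and GPCPD1, which breaks it down, was higher (1.10). For myo-inositol, IMPA2, which makes it, was lower (−0.72), and no gene of its breakdown was measured under a certain name. For betaine, only the carrier SLC6A12 (−3.26) was called, while ALDH7A1, which makes betaine from its aldehyde, averaged 22.6 ± 4.98 CPM in the controls against 22.7 ± 2.08 CPM after loading (SD, n = 6 each) and a difference of 0.01 (SE 0.14, 95% interval −0.30 to 0.31), and SLC44A1, which carries its precursor choline, had one of −0.01 (SE 0.12, 95% interval −0.27 to 0.24). ALDH7A1 and SLC44A1 were chosen after their values were seen. CHDH, the first enzyme on the way from choline to betaine, had at most 30 counts in a library and was not tested.

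Subunits of the swelling-activated anion channel did not pass the test, at −0.22 (LRRC8A, SE 0.19, adjusted p = 0.417, edgeR) and 0.57 (LRRC8C, SE 0.36, adjusted p = 0.260, edgeR). These were likewise chosen after their values were seen.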
